A study of Homo sapiens with 12 samples.

Results

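The anaphase-promoting complex, or cyclosome, and the spindle assembly checkpoint that restrains it were described here as 32 genes in RPE1 cells, an immortalised human line derived from retinal pigment epithelium. The genes were chosen by name: 14 core subunits of the complex, 2 coactivators, 2 ubiquitin-conjugating enzymes, 1 inhibitor, 7 checkpoint genes, securin and separase, and 3 mitotic cyclins with their kinase. Each of the 32 names was found under 1 identifier, among 21599 symbols or identifiers in the table. All 32 passed the filter on low counts that left 13340 rows for testing.

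RNA was measured after 72 h in 3 groups of 4 libraries from cells labelled wild type. Control cells were given DMSO, the solvent. A further group was exposed to doxorubicin at 50 nM, an anthracycline that poisons topoisomerase II and damages DNA. The last had that dose of doxorubicin together with ferrostatin-1 at 5 µM, a radical-trapping inhibitor of the lipid peroxidation that drives ferroptosis, which was renewed at 48 h. Ferrostatin-1 by itself was given to no group, all libraries come from 1 line, and the labels call them replicates without saying whether they were separate cultures, so the tests measure the spread between these libraries. These are bulk samples, in which fewer cycling cells and less RNA in each cell cannot be told apart.

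The anaphase-promoting complex is a ubiquitin ligase that marks proteins of mitosis for destruction. With its coactivator CDC20 it destroys securin and cyclin B once the chromosomes are attached, which frees separase to cut the cohesin between sister chromatids. With FZR1 it keeps the mitotic regulators low through late mitosis and G1. The spindle checkpoint works the other way: unattached kinetochores produce a complex of MAD2L1, BUB1B and BUB3 bound to CDC20 that blocks the ligase until every chromosome is attached.

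Library totals ran from 17523920 to 19650696 counts in control, from 17980433 to 20607019 with doxorubicin and from 20243458 to 24879198 with both compounds. Levels are CPM, the counts of a gene relative to its library total after scaling by trimmed means (TMM), and 3 counts amounted to 0.124 to 0.172 CPM, which covers counting error only. Control replicate 1 stood apart from the other controls: its counts differed from theirs by a chi-square of 7.01 to 13.0 per degree of freedom, against 2.41 to 3.83 among the other 3. Pairs of doxorubicin libraries gave 2.66 to 6.62, and pairs of libraries with both compounds 5.35 to 8.13. Without control replicate 1, doxorubicin against control still had 24 of the 32 genes lower and 3 higher. Of 10 markers of the pigment epithelium, 4 had at least 10 counts in every library. RDH5 was at 6.91 CPM in control, 20.98 with doxorubicin and 26.9 with both compounds, OTX2 at 17.6, 11.04 and 11.3, MITF at 45.4, 45 and 51.7 and BEST1 at 1.49, 1.17 and 1.25 in the same order, so that RDH5 was higher and OTX2 lower in the treated means. RLBP1, TYR and TTR never exceeded 4 counts, and RPE65 is not analysed here. Among epithelial markers the keratins KRT8 and KRT18 were abundant, at 341 and 257 CPM in control and 614 and 488 with doxorubicin, while EPCAM, CDH1 and KRT19 stayed at 6 counts or fewer. Immune and endothelial markers with a row stayed at 12 counts or fewer. The neuronal markers differed: MAP2 was present at 54.4 CPM in control and 48.1 with doxorubicin, SYP had 19 to 43 counts and RBFOX3 0 to 11. The part of all these markers in the results was not tested.

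The 32 genes took 0.310% to 0.325% of all counts in control libraries, 0.115% to 0.119% with doxorubicin and 0.117% to 0.122% with both compounds. With doxorubicin 24 of them fell, 3 rose and 5 did not pass edgeR's quasi-likelihood test at an adjusted p below 0.05. Over all tested rows 33.9% were called lower and 33.3% higher in this contrast, so a call alone is common here. The median log2 fold change was -0.66 over the 32 genes and -0.01 over all tested rows. In 23 of the 32 every doxorubicin library lay below every control library, which held for 30.3% of all tested rows. In 3 every doxorubicin library lay above every control library, which held for 30.1% of all tested rows.

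The fall was divided by role. All 18 genes outside the core of the ligase fell, although most alternatives lost the call of MAD1L1, with a median log2 fold change of -3.62, whereas the 14 core subunits had a median of -0.16, with 6 lower, 3 higher and 5 that did not pass. Within the 18, a set of 14 fell by more than 3 log2 units and was left at 3.78% to 11.8% of its control level. The other 4 (FZR1, UBE2S, MAD1L1 and BUB3) kept 29.2% to 89.4% of theirs. The 14 core subunits lay between 69.8% and 130.5% of control.

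**Figure D1:**
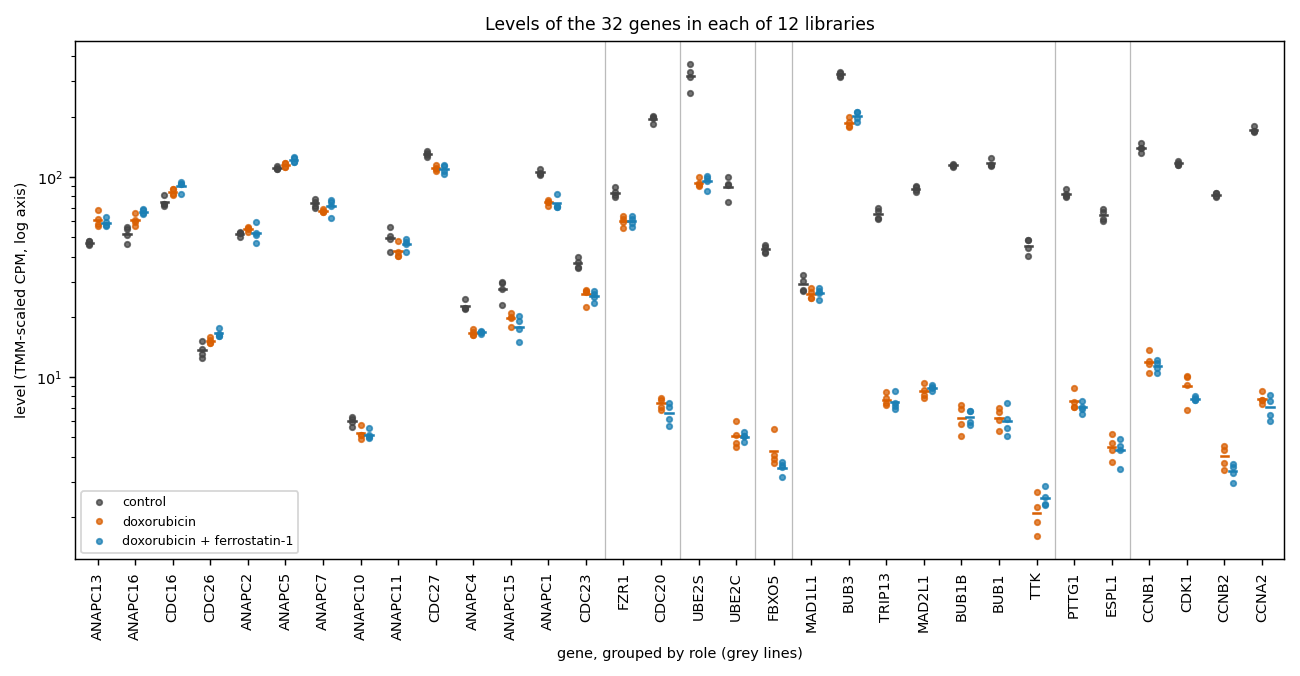
Level of each gene in each library in TMM-scaled CPM on a log axis, with a bar at the mean of 4 libraries, genes grouped by role. In control the genes outside the core lie between 29.2 and 325 CPM on average and 14 of them drop to between 2.1 and 11.9 CPM on average with doxorubicin, while the core subunits on the left lie close together in the 3 groups.

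The DNA around the start sites of the genes that fell by more than 3 log2 units was set beside that of the other genes. Among those others UBE2S also fell, to 29.2% of control. Promoters of many mitotic genes carry CCAAT boxes, bound by NF-Y, close to a cell cycle homology region, the element through which the DREAM and MYB-MuvB complexes act. The 150 bases before the RefSeq start (GRCh38.p14, 5′ to 3′ on the strand of the gene) are shown for 4 genes of large change, CDC20, CCNB2, ESPL1 and CCNB1, and for 2 of small change, FZR1 and ANAPC13. Capitals mark CCAAT on either strand and the homology region as TTTGAA or TTCGAA on either strand. These windows are chr1:43358831-43358980 on the plus strand for CDC20, chr15:59104996-59105145 on the plus strand for CCNB2, chr12:53268149-53268298 on the plus strand for ESPL1, chr5:69167000-69167149 on the plus strand for CCNB1, chr19:3506161-3506310 on the plus strand for FZR1 and chr3:134486024-134486173 on the minus strand for ANAPC13.
CDC20: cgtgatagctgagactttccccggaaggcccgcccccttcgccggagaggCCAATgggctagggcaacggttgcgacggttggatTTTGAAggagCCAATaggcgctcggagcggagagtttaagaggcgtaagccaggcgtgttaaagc
CCNB2: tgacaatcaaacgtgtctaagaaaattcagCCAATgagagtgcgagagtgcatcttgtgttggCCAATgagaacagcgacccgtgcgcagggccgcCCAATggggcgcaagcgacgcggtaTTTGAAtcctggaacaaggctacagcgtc
ESPL1: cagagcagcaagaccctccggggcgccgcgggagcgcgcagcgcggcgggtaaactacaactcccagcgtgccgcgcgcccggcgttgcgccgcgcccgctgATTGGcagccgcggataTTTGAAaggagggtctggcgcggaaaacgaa
CCNB1: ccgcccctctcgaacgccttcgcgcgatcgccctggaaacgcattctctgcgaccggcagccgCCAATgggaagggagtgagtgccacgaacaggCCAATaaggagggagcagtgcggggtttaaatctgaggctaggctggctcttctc
FZR1: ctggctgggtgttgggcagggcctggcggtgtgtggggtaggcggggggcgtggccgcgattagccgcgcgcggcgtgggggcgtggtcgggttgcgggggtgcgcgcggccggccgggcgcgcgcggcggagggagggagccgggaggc
ANAPC13: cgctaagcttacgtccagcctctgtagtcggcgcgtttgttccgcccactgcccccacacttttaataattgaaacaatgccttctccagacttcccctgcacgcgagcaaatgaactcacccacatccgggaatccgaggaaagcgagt

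In CDC20 the CCAAT boxes begin at -100 and -55 from the start and a TTTGAA lies between them at -65 to -60. Outside the window CDC20 holds another TTTGAA, read on the opposite strand, at -178 to -173. CCNB2 has CCAAT at -120, -87 and -54 in this window with TTTGAA at -29 to -24, and ESPL1 has 1 box, read on the opposite strand, at -48 to -44 and TTTGAA at -31 to -26. CCNB1 has boxes at -87 and -55 and neither form of the homology region searched. The FZR1 and ANAPC13 windows hold none of these letters, and in FZR1 a TTTGAA stands farther out, at -226 to -221. The windows shown do not stand for all genes. FBXO5, MAD2L1 and TRIP13 also fell by more than 3 log2 units and hold none of these letters in the same window. Among genes of small change, CDC23 holds 3 CCAAT matches there, and ANAPC5 and ANAPC11 hold 1 each.

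Promoters of 29 of the 32 genes were in the RefSeq table, which gives 250 bases before and 50 after each start; those of UBE2C, BUB3 and TTK were not used here. Of the 12 with a promoter that fell by more than 3 log2 units, 9 (75%) held CCAAT, 8 (66.7%) the homology region and 6 (50%) both. Not all of these matches lie upstream. In MAD2L1, BUB1 and TRIP13 the homology region lies after the start, at 25 to 30, 2 to 7 and 4 to 9. MAD2L1 has its CCAAT at -229 to -225, far from that region, and FBXO5 has no match to either. Among the other 17, CCAAT occurred in 6 (35.3%), the homology region in 3 (17.6%) and both in 0. Over all 27305 promoters of this length the shares were 35.7%, 16.6% and 6.58%. The E2F-type letters TTTCCCGC, TTTGGCGC, TTTGCCGC or TTTCGCGC, on either strand, were in 1 of the 12 (8.33%) and 2 of the 17 (11.8%), against 3.33% of all promoters.

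Over the 142 tested genes with a promoter that fell by more than 3 log2 units with doxorubicin, which include the 12, 60.6% held CCAAT, 48.6% the homology region and 35.2% both, against 36.6%, 11.3% and 4.84% of the 10389 tested genes with a promoter. The E2F-type letters were in 16.9% of the 142 and 5.47% of the 10389. No motif searched contains another, but matches can share bases, as CCAAT on opposite strands does in PTTG1. The division at 3 log2 units was set after the values were seen, no test was made, and a match is a stretch of letters and not a shown binding site.

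**Figure D2:**
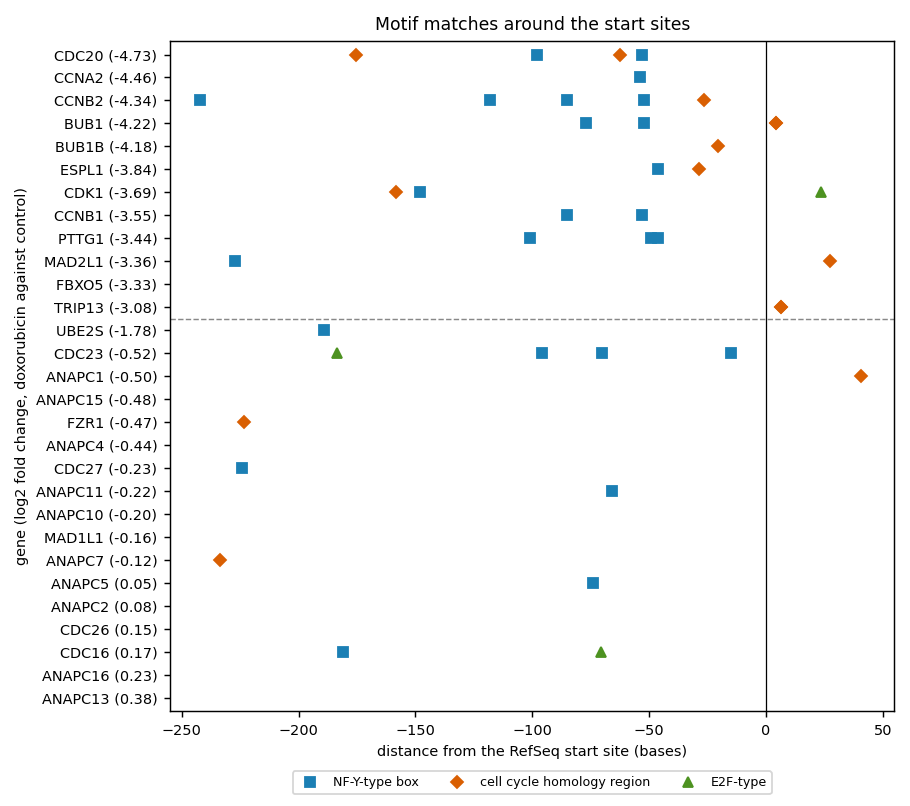
Position of motif matches on either strand relative to the RefSeq start site in bases, for the 29 genes with a promoter, ordered by their log2 fold change with doxorubicin (in brackets), with a dashed line below the 12 that fell by more than 3 log2 units. Above the line most boxes and homology regions lie within about 100 bases of the start, on either side of it, but FBXO5 has none. Below the line they are sparse, and CDC23 has 3 CCAAT matches.

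The coactivators decide when the ligase acts and on what. CDC20, the mitotic coactivator, lies on chromosome 1 from 43358955 to 43363203 on the plus strand (GENCODE 29, GRCh38). It was read at 184, 196, 200.2 and 201 CPM in the control libraries, 7.84, 7.13, 6.86 and 7.697 with doxorubicin and 7.07, 7.46, 6.203 and 5.71 with both compounds. Every treated library held fewer than 8 CPM and the lowest control 184. The log2 fold change was -4.73 ± 0.072 (adjusted p = 3.42e-25, edgeR), to 3.78% of control, the 15th lowest fold change of 13340 tested rows. FZR1, the coactivator of G1, lies on chromosome 19 from 3506273 to 3538330 on the plus strand and was read at 80.8, 84.3, 79.03 and 89.3 CPM in control, 59.3, 55.8, 63.5 and 61.6 with doxorubicin and 61.5, 64.01, 59.1 and 55.9 with both compounds. Its groups did not overlap with control either, but it kept 72.04% of its level (log2 fold change -0.47 ± 0.058, adjusted p = 8.81e-08).

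A library held 2.28, 2.32, 2.53 and 2.26 CDC20 counts per FZR1 count in control and 0.132, 0.128, 0.108 and 0.125 with doxorubicin, a ratio that does not depend on how libraries are scaled. CDC20 was thus the more counted of the pair in every control and FZR1 in every treated library. Per kilobase of merged exon, CDC20 stood at 95.9 CPM in control and 3.62 with doxorubicin, and FZR1 at 14.4 and 10.3. The order of the levels thus also turned over on this scale, which compares genes only roughly. Merged exons take in every annotated transcript, and whether the counts were already adjusted for length is not known. An exact two-sided permutation test of 4 against 4 libraries cannot go below p = 0.0286, which this ratio reached, and over the 42 ratio tests made the adjusted p was 0.0545, which does not pass.

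The ubiquitin-conjugating enzymes split in the same way. UBE2C, which places the first ubiquitins, had 75.2, 91.98, 91.4 and 99.3 CPM in control, 4.68, 6.03, 4.45 and 5.11 with doxorubicin and 5.29, 5.06, 4.72 and 5.09 with both compounds. It fell by 4.13 ± 0.10 log2 units (adjusted p = 6.37e-22, edgeR), to 5.67% of control. UBE2S, which extends the chain, had 262, 315, 336 and 365 CPM in control, 90.9, 89.8, 92.7 and 100 with doxorubicin and 101, 98.7, 84.8 and 95.1 with both. Its control libraries were spread widely, with control replicate 1 lowest for both enzymes, and none came near the treated range. The log2 fold change of UBE2S was -1.78 ± 0.085 (adjusted p = 1.42e-11), leaving 29.2% of control.

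UBE2C was counted 0.287, 0.292, 0.272 and 0.272 times per UBE2S count in control and 0.0515, 0.0672, 0.048 and 0.0511 with doxorubicin, without overlap. An annotated copy, UBE2CP5, took 37 to 67 counts in control libraries, which is 2.66% of the counts of UBE2C there, and 28 to 40 with doxorubicin, which is 38.6%. Reads may be divided between a gene and such a copy, and with the copy added to UBE2C, an alternative chosen after the data were seen, the log2 fold change was -3.70.

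FBXO5 encodes the inhibitor that holds the ligase off through S phase and G2. Its levels were 45.7, 41.6, 44.7 and 41.9 CPM in control, 3.89, 4.09, 5.47 and 3.73 with doxorubicin and 3.76, 3.17, 3.64 and 3.54 with both compounds. The groups were far apart, with 1 doxorubicin library, replicate 3, higher than the rest of the treated ones. The log2 fold change was -3.33 ± 0.10 (adjusted p = 4.59e-20), or 9.88% of control. Counts of FBXO5 per FZR1 count went from 0.523 ± 0.0495 (mean ± SD, n = 4) in control to 0.0714 ± 0.0111, without overlap.

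Of the 7 checkpoint genes, 5 lost most of their message and 2 did not. TTK, the kinase that starts checkpoint signalling at the kinetochore, was at 48.1, 40.2, 48.5 and 44.3 CPM in control, 2.65, 2.24, 1.61 and 1.895 with doxorubicin and 2.31, 2.503, 2.87 and 2.303 with both compounds. It was the least abundant of the 32 genes after treatment, with 30 counts in its lowest library, and its log2 fold change was -4.43 ± 0.11 (adjusted p = 4.22e-21, edgeR).

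BUB1, a kinetochore kinase that recruits other checkpoint proteins, was read at 124, 115, 114 and 114 CPM in control and 6.996, 6.08, 5.36 and 6.66 with doxorubicin. BUB1B, its paralogue and a part of the inhibitory complex, was read at 113, 112, 116 and 115 CPM in control and 6.94, 7.23, 5.84 and 5.05 with doxorubicin. Both dropped to almost the same share of control, 5.37% and 5.496%, with log2 fold changes of -4.22 ± 0.086 and -4.18 ± 0.081 (adjusted p = 4.75e-23 and 2.11e-23). Their ratio to each other was 1.02 ± 0.0495 in control and 1.02 ± 0.209 with doxorubicin (mean ± SD, n = 4), with overlapping groups.

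BUB3 is the partner through which both reach the kinetochore. Its levels were 317, 317, 336 and 331 CPM in control, 178, 199, 188 and 179 with doxorubicin and 197, 188, 210.2 and 209.9 with both compounds. It fell without overlap but kept 57.1% of control (log2 fold change -0.81 ± 0.049, adjusted p = 1.9e-13). BUB1B was counted 0.351 ± 0.00547 times per BUB3 count in control and 0.0337 ± 0.00491 times with doxorubicin.

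MAD2L1, the protein that captures CDC20, was at 86.5, 83.98, 88.8 and 90.5 CPM in control, 8.63, 9.32, 7.83 and 8.16 with doxorubicin and 8.51, 8.79, 9.18 and 8.903 with both compounds. MAD1L1, the scaffold that presents MAD2L1 at the kinetochore, was at 27.2, 27.03, 32.2 and 30.2 CPM in control, 24.8, 26.6, 24.9 and 27.97 with doxorubicin and 27.8, 26.97, 24.2 and 26.2 with both compounds. MAD2L1 fell to 9.702% of control (log2 fold change -3.36 ± 0.068, adjusted p = 3.97e-23), while MAD1L1 overlapped between the groups and lay at 89.4%. MAD1L1 passed narrowly (log2 fold change -0.16 ± 0.072, adjusted p = 0.0484) and kept its call in 5 of 19 alternatives, so its direction is stated with that limit. A control library held 3.18, 3.11, 2.76 and 2.998 MAD2L1 counts per MAD1L1 count, and a doxorubicin library 0.348, 0.351, 0.315 and 0.292.

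TRIP13 is an ATPase that opens MAD2L1 and takes the inhibitory complex apart. It had 61.9, 61.96, 70.1 and 67.5 CPM in control and 7.22, 7.82, 8.42 and 7.41 with doxorubicin, a log2 fold change of -3.08 ± 0.078 (adjusted p = 4.08e-21). This was the smallest change among the 14 genes that fell by more than 3 log2 units, and the ratio of TTK to TRIP13 counts was 0.694 ± 0.0594 in control and 0.275 ± 0.0731 with doxorubicin (mean ± SD, n = 4), without overlap. The checkpoint genes that set up the signal and TRIP13, which dissolves it, were thus lower, MAD1L1 only with the limit given above. MAD2L1BP, which works with TRIP13 and is described below, did not pass. Summed over the 7 genes the level was 757 to 806 CPM in control and 235 to 258 CPM with doxorubicin, most of the latter BUB3.

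**Figure D3:**
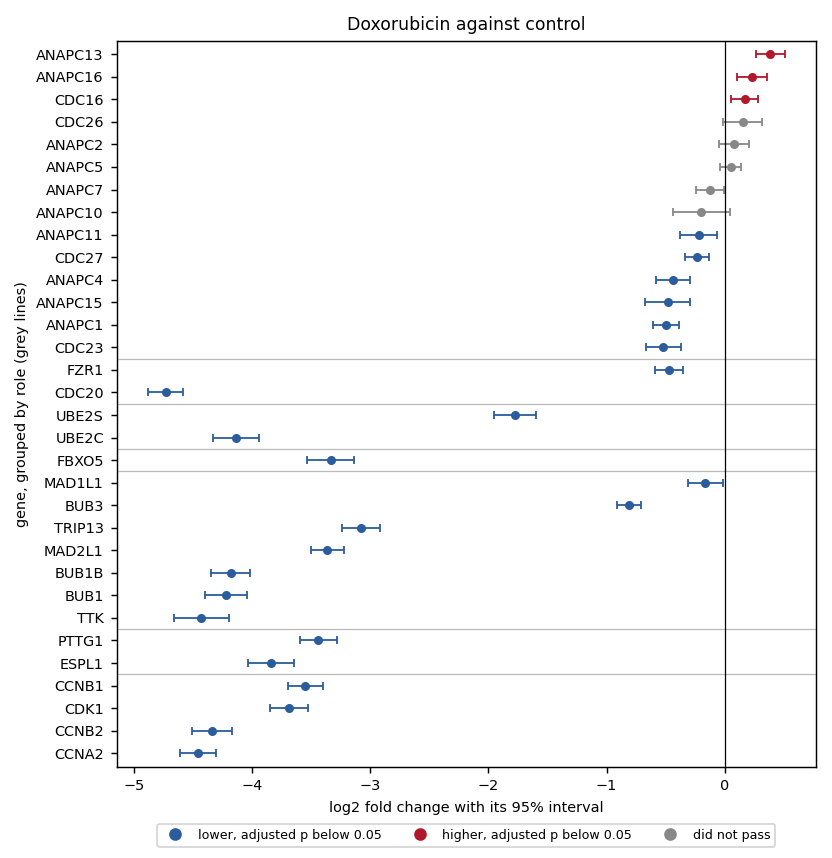
Log2 fold change of doxorubicin against control for the 32 genes, with 95% intervals from the edgeR fit, grouped by role; blue is lower, red is higher and grey did not pass. The core subunits lie between -0.52 and 0.38, and FZR1, MAD1L1 and BUB3 lie nearer to them than to the other genes outside the core.

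Separase cuts cohesin at anaphase and securin is the inhibitor that the ligase removes to release it. PTTG1, which encodes securin, was read at 79.7, 80.7, 86.96 and 82.4 CPM in control, 7.05, 7.47, 8.79 and 7.07 with doxorubicin and 7.603, 6.95, 6.56 and 7.09 with both compounds. ESPL1, which encodes separase, was read at 69.3, 66.97, 61.8 and 59.96 CPM in control, 3.78, 4.68, 4.34 and 5.17 with doxorubicin and 4.297, 4.55, 3.49 and 4.92 with both compounds. The enzyme and its inhibitor fell together, with log2 fold changes of -3.44 ± 0.074 and -3.84 ± 0.094 (adjusted p = 1.77e-22 and 1.8e-21, edgeR). The ratio of PTTG1 to ESPL1 counts was 1.28 ± 0.126 in control and 1.71 ± 0.291 with doxorubicin, and these groups overlapped (exact permutation p = 0.0857, adjusted 0.138).

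The mitotic cyclins are both targets of the ligase and, with CDK1, the engine of mitosis. CCNA2, the cyclin of S phase and G2, was at 169.9, 170.0, 179 and 167 CPM in control, 7.67, 8.52, 7.29 and 7.697 with doxorubicin and 6.49, 7.61, 8.15 and 6.02 with both compounds. CCNB1, the main partner of CDK1 at mitotic entry, was at 131, 139.7, 139 and 148 CPM in control, 11.96, 10.5, 13.7 and 11.6 with doxorubicin and 11.8, 10.5, 12.2 and 11.1 with both compounds. No library of a treated group approached the control range for either gene. Their log2 fold changes were -4.46 ± 0.074 and -3.55 ± 0.071 (adjusted p = 1.2e-24 and 3.89e-23, edgeR). CCNA2 shares 254 exon bases, 9.08% of its merged exon length, with EXOSC9 on the other strand, whose mean count also went from 996 to 295; the libraries do not mark strand, so reads there cannot be assigned.

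CCNB2, the second B-type cyclin, was read at 83, 79.3, 83.3 and 80.4 CPM in control and 3.44, 4.54, 4.34 and 3.73 with doxorubicin. CDK1, the kinase, was read at 117, 115, 119.9 and 115 CPM in control and 6.88, 10.2, 9.97 and 9.07 with doxorubicin, with doxorubicin replicate 1 the lowest of its group. They fell by 4.34 ± 0.082 log2 units and 3.69 ± 0.078 log2 units (adjusted p = 1.4e-23 and 1.13e-22). Summed over the 3 cyclins and CDK1, the level went from 501 to 522 CPM in control libraries to 30.0 to 35.3 with doxorubicin.

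The cyclins did not keep their proportions. The ratio of CCNB1 to CCNA2 counts was 0.773, 0.822, 0.778 and 0.886 in the control libraries and 1.56, 1.23, 1.88 and 1.51 in the doxorubicin libraries, so that CCNA2 was the more counted in every control and CCNB1 in every treated library. Its ratio to CCNB2 was 1.71 ± 0.112 in control and 3.01 ± 0.491 with doxorubicin, also without overlap. Against CDK1 it was 1.196 ± 0.0717 and 1.35 ± 0.292, and the groups overlapped. In all, 10 of the 14 pair ratios did not overlap between doxorubicin and control, each at the smallest exact permutation p and at 0.0545 after adjustment, so none passes. The pairs were chosen by name, and the share over other gene pairs was not worked out. Of single tested rows, 30.3% lay wholly below control and 30.1% wholly above. The count of pairs is therefore not read as an excess, and the ratios restate the fold changes of their genes. Without doxorubicin replicate 4, 24 of the 42 ratio tests had an adjusted p of 0.05, equal to the threshold, and were counted as passing only through rounding.

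**Figure D4:**
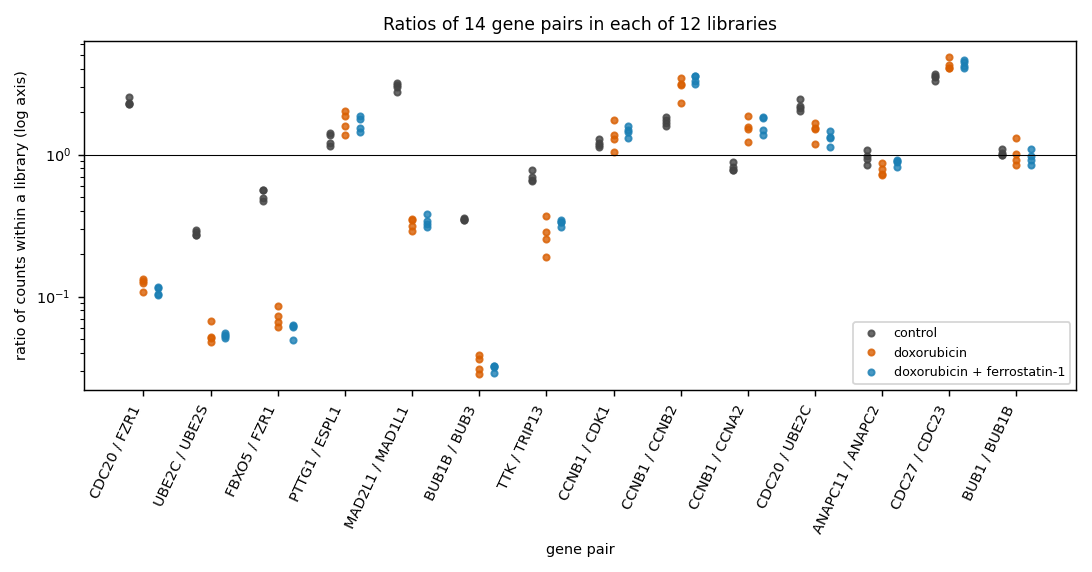
Ratio of counts within each library for 14 pairs of genes on a log axis, with a line at equal counts. CDC20 to FZR1 and MAD2L1 to MAD1L1 cross the line from control to the treated groups downwards and CCNB1 to CCNA2 upwards, while the 2 treated groups overlap in all 14 pairs.

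The core of the ligase itself changed little and in both directions. Its summed level was 786 to 826 CPM in control libraries, 743 to 770 with doxorubicin and 752 to 791 with both compounds. Among the platform subunits, ANAPC1, the largest scaffold, was at 109.8, 102, 104 and 105 CPM in control and 75.1, 71.5, 76.8 and 75.01 with doxorubicin. It fell without overlap to 70.9% of control (log2 fold change -0.50 ± 0.053, adjusted p = 1.06e-08, edgeR). The transcribed copies ANAPC1P4 and ANAPC1P2 had 5.204% and 2.44% of its counts in control and 8.23% and 3.07% with doxorubicin.

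ANAPC4 and ANAPC5 complete the platform and differed. ANAPC4 was at 22.04, 21.9, 24.5 and 22.1 CPM in control and 16.3, 17.4, 16.1 and 16.8 with doxorubicin, a fall without overlap (log2 fold change -0.44 ± 0.069, adjusted p = 4.55e-06). ANAPC5 was at 109.9, 109, 113 and 111 CPM in control and 112, 118, 117 and 112 with doxorubicin, overlapping, and did not pass (0.051 ± 0.044, adjusted p = 0.321). ANAPC15, a small subunit needed to turn over the checkpoint complex, was at 22.9, 29.6, 27.6 and 29.7 CPM in control and 17.7, 20.98, 19.8 and 20.1 with doxorubicin and fell (-0.48 ± 0.092, adjusted p = 6.07e-05), although 27.1% of its exon bases are shared with LRTOMT on the other strand, which had 43 to 100 counts.

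The catalytic subunits kept most of their level. ANAPC2, the cullin subunit, was at 49.99, 52.2, 53.04 and 52.3 CPM in control and 55.6, 55.9, 53.2 and 54.97 with doxorubicin. Its doxorubicin libraries all lay above the controls, the nearest narrowly, but it did not pass (0.082 ± 0.061, adjusted p = 0.245). ANAPC11, the RING subunit that binds the conjugating enzyme, was at 42.1, 50.9, 49.2 and 56.1 CPM in control and 40.3, 40.4, 42.04 and 47.6 with doxorubicin; the groups overlapped, the log2 fold change was -0.22 ± 0.075 (adjusted p = 0.013), and the call was lost without control replicate 4 (adjusted p = 0.0756). ANAPC10, which helps hold the substrate, had the lowest levels of the core, 5.96, 5.599, 6.31 and 6.15 CPM in control and 5.13, 5.73, 5.15 and 4.88 with doxorubicin, and did not pass (-0.20 ± 0.12, adjusted p = 0.135). It shares 10.4% of its exon bases with ABCE1 on the other strand, with mean counts of 3334 in control and 2682 with doxorubicin, and 22.6% with AC098588.1 on the same strand, which had at most 8 counts.

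The arm of tetratricopeptide repeat subunits, which binds the coactivators, went in both directions. CDC23 was at 37.7, 35.5, 39.9 and 35.03 CPM in control and 27.4, 26.96, 26.6 and 22.5 with doxorubicin, and fell most of the core, to 69.8% (-0.52 ± 0.071, adjusted p = 6.57e-07). It shares 68 exon bases, 1.47% of its exons, with KIF20A on the other strand, whose mean count went from 3402 to 66.5. CDC27 was at 135, 125, 132 and 129 CPM in control and 111, 115, 108 and 109.9 with doxorubicin and also fell (-0.23 ± 0.048, adjusted p = 0.000125).

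CDC16, of the same arm, was at 71.7, 73.5, 81.4 and 73.5 CPM in control and 82.3, 86.8, 87.04 and 81.2 with doxorubicin, higher with 1 control library, replicate 3, inside the doxorubicin range (0.17 ± 0.055, adjusted p = 0.00978). ANAPC7 was at 75.3, 70.3, 77.8 and 71.6 CPM in control and 67.7, 66.98, 69.1 and 66.9 with doxorubicin; its doxorubicin libraries all lay below the controls but it did not pass (-0.12 ± 0.059, adjusted p = 0.0664). CDC26, which stabilises CDC16, was at 12.5, 13.9, 13.04 and 15.2 CPM in control and 14.8, 15.4, 14.8 and 15.8 with doxorubicin and did not pass (0.15 ± 0.08, adjusted p = 0.0945). It shares 17.7% of its exon bases with PRPF4 on the other strand, whose mean count went from 1141 to 715.

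The small subunits that fasten this arm were higher. ANAPC13 was at 45.4, 46.3, 48.02 and 47.8 CPM in control and 57.04, 58.4, 68 and 61.3 with doxorubicin, 130.5% of control without overlap (0.38 ± 0.059, adjusted p = 3.54e-06, edgeR). It shares 13.0% of its exon bases with CEP63 on the other strand, whose mean count went from 498.5 to 329. ANAPC16 was at 46.2, 51.4, 56.05 and 54.6 CPM in control and 61.2, 59.8, 65.9 and 57.1 with doxorubicin (0.23 ± 0.061, adjusted p = 0.00209). With library totals in place of TMM scaling the median of all tested rows was -0.15 in place of -0.01, and against that scale ANAPC13 was still called higher at 0.24 while CDC16 (0.028, adjusted p = 0.67) and ANAPC16 (0.088, adjusted p = 0.197) were not.

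When ferrostatin-1 was added to doxorubicin, the treated groups stayed close to each other and the large falls remained. None of the 32 genes was called between them, by edgeR or by DESeq2, where 3.28% of all tested rows were called lower and 2.4% higher. At an unadjusted p below 0.05 there were 5 (FBXO5, CCNB2, CDK1, BUB3 and ANAPC16). The share of all tested rows at that threshold was not worked out. This count, and those at the same threshold in the lists below, are therefore not read as an excess. The median log2 fold change was -0.02, against -0.00088 over all tested rows. For the 14 genes that had fallen by more than 3 log2 units the estimates ran from -0.28 to 0.24, 11 of 14 below 0, and the 95% intervals lay within -0.54 to 0.57. None of these intervals reaches the size of the fall that doxorubicin produced.

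FBXO5 had the lowest estimate, -0.28 ± 0.12 (95% interval -0.54 to -0.025, adjusted p = 0.252, edgeR), from the per-library levels given above. CDK1 was at 6.88, 10.2, 9.97 and 9.07 CPM with doxorubicin and 7.85, 8.02, 7.64 and 7.66 with both compounds, a narrow band inside the wider doxorubicin range (-0.22 ± 0.10, 95% interval -0.41 to -0.018, adjusted p = 0.255). Without doxorubicin replicate 1, its lowest library, CDK1 was called lower (-0.32, adjusted p = 0.022), and this was the 1 gene called in any of the alternatives. TTK had the highest estimate, 0.24 ± 0.16 (95% interval -0.09 to 0.57, adjusted p = 0.522).

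CCNB2 stood at 3.44, 4.54, 4.34 and 3.73 CPM with doxorubicin and 3.31, 2.96, 3.69 and 3.54 with both compounds, overlapping (-0.25 ± 0.12, 95% interval -0.49 to -0.016, adjusted p = 0.272). BUB3 stood at 178, 199, 188 and 179 CPM with doxorubicin and 197, 188, 210.2 and 209.9 with both compounds, also overlapping (0.12 ± 0.049, adjusted p = 0.222). In the core, ANAPC5 was at 112, 118, 117 and 112 CPM with doxorubicin and 119, 118, 124 and 126 with both compounds, and CDC26 at 14.8, 15.4, 14.8 and 15.8 CPM with doxorubicin and 15.9, 16.04, 16.5 and 17.6 with both. In those 2 genes alone of the 32 the groups did not overlap, both higher with ferrostatin-1, against 5.22% of all tested rows. Neither passed (0.086 ± 0.044 and 0.12 ± 0.079, adjusted p = 0.353 and 0.508), and the pair ratios overlapped in 14 of 14.

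**Figure D5:**
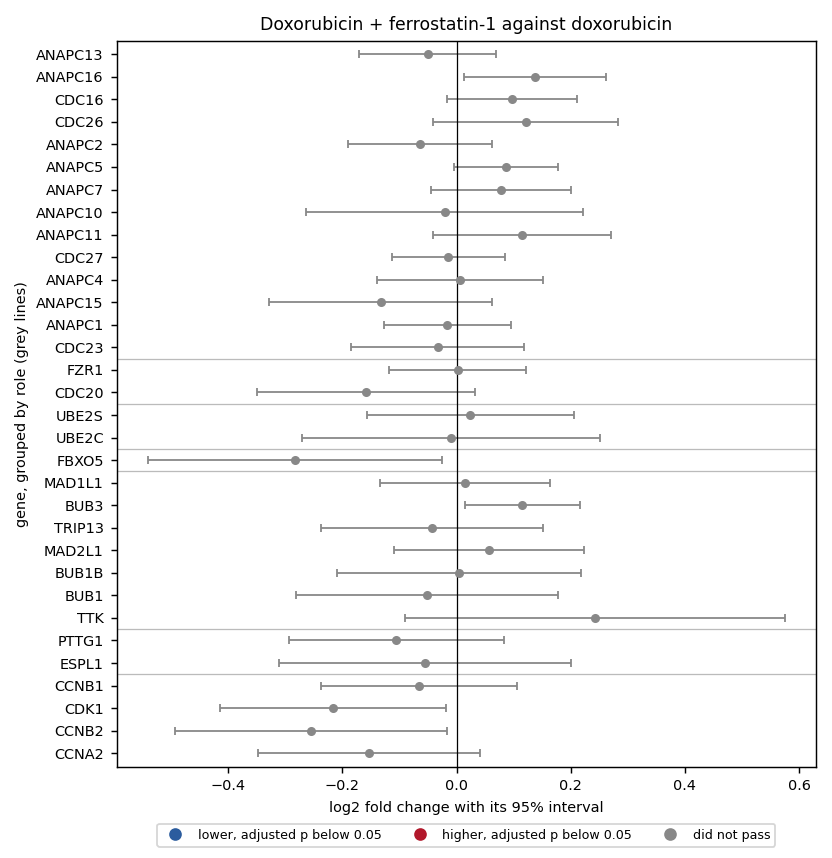
Log2 fold change of doxorubicin plus ferrostatin-1 against doxorubicin for the 32 genes, with 95% intervals from the edgeR fit, grouped by role. The axis spans about a log2 unit in all, every point is grey because no gene passed, and the interval is widest for TTK, the gene with the fewest counts in the treated libraries.

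Against control, both compounds together gave 22 of the 32 genes lower and 5 higher, with a median log2 fold change of -0.65; over all tested rows 34.3% were called lower and 33.1% higher. This contrast shares its controls with doxorubicin against control, so the values are given side by side and are not independent. CDC20 was -4.89 ± 0.071 here and -4.73 ± 0.072 with doxorubicin alone, CCNA2 was -4.61 ± 0.074 and -4.46 ± 0.074, and MAD2L1 was -3.31 ± 0.066 and -3.36 ± 0.068 (edgeR log2 fold change ± SE). In the core, 5 subunits were higher: ANAPC13, ANAPC16 and CDC16, as with doxorubicin alone, and ANAPC5 (0.14 ± 0.044, adjusted p = 0.00835) and CDC26 (0.27 ± 0.079, adjusted p = 0.00351). MAD1L1 (-0.15 ± 0.071, adjusted p = 0.0677) and ANAPC11 (-0.11 ± 0.074, adjusted p = 0.216) did not pass here. With library totals alone ANAPC5 was at -0.010 in this contrast, and the calls of CDC16 and CDC26 were lost.

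Most other genes of the pathway that were listed were also lower with doxorubicin. For this list and those after it, 33.9% of all tested rows were called lower and 33.3% higher with doxorubicin. With ferrostatin-1 added to doxorubicin, 3.28% of all tested rows were called lower and 2.4% higher. Of 20 further substrates of the ligase, 20 were lower with doxorubicin, with a median log2 fold change of -3.35. Those with the smallest p were RRM2, the small subunit of ribonucleotide reductase (-3.58 ± 0.049), FOXM1, a transcription factor of G2 and M genes (-3.95 ± 0.059), TPX2, a spindle assembly factor (-3.35 ± 0.053), and NUSAP1, a microtubule-binding protein (-5.29 ± 0.089), with adjusted p = 6.8e-26, 3.42e-25, 6.44e-25 and 1.42e-24 in that order (edgeR). Here ferrostatin-1 had called effects in 4 of the 20, all lower and small: RRM2 (-0.24 ± 0.052, adjusted p = 0.00415), ANLN, a cytokinesis protein (-0.24 ± 0.06, adjusted p = 0.0139), TPX2 (-0.22 ± 0.057, adjusted p = 0.0157) and SKP2, an F-box protein (-0.28 ± 0.078, adjusted p = 0.0349). Mean levels with doxorubicin were 32.3 CPM for RRM2, 41.9 for ANLN, 28.1 for TPX2 and 16.3 for SKP2, and at most 11.9 CPM for the 14 genes that had fallen by more than 3 log2 units. Other genes of like or higher level were not called, among them CKAP2 at 31 CPM, FOXM1 at 16.9, UBE2S at 93.3 and BUB3 at 185.9. Whether the level of a gene bears on these calls was not tested.

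Of 13 further kinetochore and checkpoint recruiters, 12 were lower with doxorubicin, with a median of -2.94, and none was called by edgeR with ferrostatin-1, 3 having an unadjusted p below 0.05. KNL1, the platform on which BUB proteins dock, changed by -4.31 ± 0.092, NDC80 and NUF2, which together bind the microtubule, by -4.38 ± 0.10 and -4.58 ± 0.10, and ZWINT, which links KNL1 to further recruiters, by -2.94 ± 0.066 (log2, adjusted p at most 3.26e-22, edgeR). MAD2L1BP, which works with TRIP13 to open MAD2L1, did not pass (-0.067 ± 0.074, adjusted p = 0.44). Its partner TRIP13 was at -3.08 ± 0.078.

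Of 12 genes that switch mitosis on or off, 10 were lower and 1 higher, with a median of -1.85, and again none was called with ferrostatin-1, 1 having an unadjusted p below 0.05. CDC25B, a phosphatase that activates CDK1, changed by -3.27 ± 0.064, and PKMYT1 and WEE1, the kinases that restrain CDK1, by -3.33 ± 0.10 and -2.19 ± 0.078. CCNF, the F-box protein cyclin F, changed by -3.11 ± 0.081. Activators and inhibitors of CDK1 were thus lower together, with adjusted p from 2.97e-23 to 3.51e-17. PPP2R2A, a regulatory subunit of the phosphatase that opposes CDK1, was the 1 called higher (0.16 ± 0.056, adjusted p = 0.0142), and ENSA, an inhibitor of that phosphatase once phosphorylated, did not pass (-0.093 ± 0.053, adjusted p = 0.127).

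For comparison with another family of ubiquitin ligases, 14 subunits of cullin-RING ligases were measured in the same libraries. With doxorubicin 4 were lower and 7 higher, with a median log2 fold change of 0.10, where 33.9% of all tested rows were lower and 33.3% higher. None was called with ferrostatin-1, and 1 had an unadjusted p below 0.05. CUL1, the cullin of the SCF ligase, was -0.58 ± 0.057, and BTRC, an F-box protein of that ligase, 0.72 ± 0.064 (adjusted p = 2.24e-09 and 2.82e-10, edgeR). DDB1, the adaptor of cullin 4 ligases, was 0.37 ± 0.041, and ELOB, an adaptor of cullin 2 and cullin 5 ligases, 0.54 ± 0.076 (adjusted p = 1.31e-08 and 5.95e-06). Changes in this family ran from -0.58 to 0.72, and those of the core subunits of the anaphase-promoting complex from -0.52 to 0.38.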

How the data were processed

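The deposited table gives whole-number counts per gene identifier for 12 libraries, 4 per group, made per the labels with a kit that does not mark strand and sequenced from both ends. Salmon, DESeq2 and build GRCh38 appear in the submitters' processing notes with no role or version; how estimated counts became whole numbers, and whether lengths were adjusted for, is not given in the sources used here. Each column is named for its group with a number (1 to 4) that is not the running number of the titles, so a column has a group and no title.

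Counts of the 22498 identifiers were summed by symbol (618 symbols had several identifiers and 1935 identifiers had none) and filtered by filterByExpr (minimum count 10, minimum total 15). The 13340 remaining rows were scaled by TMM and tested with edgeR 4.0.16 (limma 3.58.1, R 4.3.3), a robust quasi-likelihood fit with 1 mean per group over 12 libraries and Benjamini-Hochberg adjustment over all rows. Every adjusted p is from this fit unless named otherwise. DESeq2 1.42.0 was an alternative. Standard errors come from the F statistic and intervals are 95%. Ratios of counts were compared by exact two-sided permutation tests. The edgeR fit was tested on simulated data, for doxorubicin against control.

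Members and lists were chosen with earlier results of these data known. Every member is named, and from each related list up to 4 genes with the smallest p in a contrast. Apart from these, MAD2L1BP, PPP2R2A and ENSA were named as the exceptions of their lists, and CKAP2 as an uncalled gene of like level. Those choices were made after the values were seen. Same-numbered libraries did not deviate together (residual r from -0.104 to 0.0976 in 12 pairs, and from -0.102 to 0.142 in 36 pairs of different numbers). Positions and exon overlaps are from GENCODE 29 and promoters from RefSeq (GRCh38.p14). Intervals and floors cover counting error only, or the spread between these libraries. Figures were drawn with Python 3.11.15, numpy 2.4.6 and matplotlib 3.10.9.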

Additional observations from a re-analysis of the deposited data

Results flagged for a closer look

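Among 96 groups of 4 libraries (32 genes in 3 groups), 4 held a library whose gap to its nearest neighbour was too large a part of the range of the group for Dixon's test at 95% (parts of 0.845 to 0.939), which chance passes in about 1 of 20 groups. ANAPC1 was at 82.1 CPM in replicate 3 of doxorubicin plus ferrostatin-1, against 70.8 to 71.5 in the other 3. ANAPC4 was at 24.5 CPM in control replicate 3, against 21.9 to 22.1. CDC23 was at 22.5 CPM in doxorubicin replicate 4, against 26.6 to 27.4. BUB1 was at 124 CPM in control replicate 1, the control library that stands apart, against 113.9 to 115 in the other controls. The calls of these 4 genes against control were kept in all 19 alternatives of each contrast, and between the treated groups none of the 4 was called in any.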

How the results depend on the processing

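Across scaling, filter, tool, identifier, group and leave-one-out alternatives, doxorubicin against control called 26 to 27 of the 32 genes and both compounds against control 27 to 29. Leaving out 1 library at a time gave 0 to 1 called between both compounds and doxorubicin, the 1 being CDK1 without doxorubicin replicate 1, and 0 to 24 of the 42 ratio tests, the 24 without doxorubicin replicate 4, where 24 tests at the smallest p adjust to 0.05, equal to the threshold, against 22 at 0.0545 with all libraries. With library totals alone the split over all rows was 5808 lower and 3237 higher for doxorubicin against control, in place of 4519 and 4437, and 6009 and 3226 for both compounds against control, in place of 4575 and 4415; the 32 genes were then 26 lower and 1 higher, and 26 lower and 2 higher. The estimate that changed sign was ANAPC5 for both compounds against control, -0.010 (adjusted p = 0.847) with library totals alone; a change of sign was counted only where a value was called. Of 1827 single-gene results under an alternative, 33 changed: 19 lost a call, 13 gained one and 1 changed sign. MAD1L1 with doxorubicin had adjusted p from 0.0537 to 0.202 in the alternatives that lost its call. ANAPC7, ANAPC10 and CDC26 with doxorubicin, and ANAPC7, ANAPC10, ANAPC11 and MAD1L1 with both compounds, were called in some alternatives. The replicate block, with numbers that do not pair the libraries, called 26, 0 and 27 genes in the 3 contrasts. Low counts limit what can be seen of ferrostatin-1 in the genes that fell most, and this limit differs between them. The lowest treated library held 30 counts for TTK and 121 for CDC20, the gene that fell most.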
